A study of Mus musculus with 4 samples.

Results

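Bone morphogenetic proteins (BMPs) are secreted ligands of the TGF-beta superfamily that bind paired serine/threonine kinase receptors and act through the transducers Smad1, Smad5 and Smad9 together with Smad4. Secreted antagonists such as noggin, follistatin and gremlin bind the ligands outside the cell, and the Id genes, whose products are HLH proteins without a DNA-binding region that sequester E-protein transcription factors, are among the best-known direct targets of the signal. In the developing tongue, BMP signals and their antagonists are known for their part in setting the pattern and spacing of the papillae. The 10 genes described here were chosen by symbol from the 24453 genes in the files: the ligands Bmp2, Bmp3, Bmp4 and Bmp7, the antagonists Nog, Fst and Grem1, and the targets Id1, Id2 and Id3. All 10 were present, and 9 passed the filter on low counts; Grem1 did not.

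RNA was sequenced from mouse tongue epithelium at embryonic day 16, in cells sorted for EpCAM, an epithelial surface adhesion molecule, after the part of the tongue that bears the circumvallate papillae had been cut away. There were 2 control libraries, whose alleles are given only as control, and 2 libraries labelled Ring1a/b 2KO, with the genotype Ring1a-/- Ring1b fl/fl K14-Cre+. In that genotype Ring1a is missing in every cell, while Ring1b, the other catalytic subunit of Polycomb repressive complex 1, is removed where the Krt14 promoter drives Cre, so cells that never expressed Krt14 keep it. The comparison asks how the loss of this chromatin complex, which keeps developmental genes silent, alters RNA in the lingual epithelium. The labels do not say whether replicates came from separate embryos or from pools, so the p-values rest on a spread between libraries that may be technical.

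The libraries held 16256569 to 20624055 counts, with 16810 to 17781 genes counted. Neither targeted gene was lower in the 2KO-labelled libraries: Ring1 (Ring1a) stood at 9.02 and 8.57 CPM (the count scaled to library size, by the TMM method) in the controls, against 16.8 and 15.0 CPM under the 2KO label, and Rnf2 (Ring1b) at 34.0 and 51.3 against 62.9 and 62.4 CPM. A count over a whole gene misses a partial deletion, and the labels do not name the deleted exons, so the genotype is not checked by these values, and the directions given are those of the libraries labelled 2KO. The epithelial label was met: Epcam, Krt14 and Trp63 were at 189 or more CPM in each library. The 10 epithelial markers summed to 16364 and 13449 CPM in the controls, against 11406 and 12287 CPM under the 2KO label. Of these 10, 3 were called lower (Krt5, Krt14 and Pax9) and 0 higher. Over all genes tested, 4.92% were lower and 7.0% higher. Of lists of 10 markers each for other cell types, mesenchyme markers summed to 274 and 344 CPM in the controls, against 373 and 333 CPM under the 2KO label, with 0 of 9 tested called by edgeR (3 at an unadjusted p under 0.05; 1 called by DESeq2 and 0 by limma-voom) and Twist2 at 0 counts in a library of each group. Endothelial markers summed to 32.1 and 27.1 against 45.9 and 65.6 CPM, with 9 of 10 tested at a positive log2 fold change and 0 called by edgeR (2 at an unadjusted p under 0.05; 1 called by DESeq2 and 0 by limma-voom). Blood and immune markers, of which 9 were in the files, summed to 31.8 and 22.3 against 57.7 and 46.7 CPM, with 1 of 5 tested called, Cd68, higher. Of the 5 tested, 2 had a positive and 3 a negative log2 fold change. Cd68 alone stood at 21.3 and 11.9 against 47.2 and 39.0 CPM, the largest part of each of these sums. These sums leave out the haemoglobin gene Hba-a1, which has 0 counts in all 4 libraries but FPKM values of 14.6 and 39.1 in the controls, against 13.7 and 39.3 under the 2KO label, so its deposited values disagree and haemoglobin RNA cannot be called absent. Skeletal muscle markers set control replicate 2 apart, at 427 CPM against 62.5 CPM in control replicate 1 and 67.0 and 81.9 CPM in the 2KO-labelled libraries; 0 of 9 tested were called by edgeR (4 at an unadjusted p under 0.05; 0 by DESeq2 or limma-voom). Markers of glia, neurons and melanocytes summed to 160.0 and 97.8 CPM in the controls, against 99.5 and 114 CPM under the 2KO label, with Elavl3 called higher and Tubb3 lower among 8 tested. The called markers are named after their values were seen. The part of other cell types in the results below was not tested, and in bulk RNA fewer cells of a type and less RNA per cell cannot be told apart.

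Promoter sequence shows how 4 of the members differ in CpG content, the feature that marks many promoters bound by Polycomb complexes. RefSeq sequence of build GRCm38.p6, the same assembly as the mm10 build of the files, was matched for 4 of the 10 members, Bmp4, Grem1, Id2 and Id3, and not for Bmp2, Bmp3, Bmp7, Nog, Fst and Id1. The sequences are windows of 300 bases that end 50 bases after the start of the transcript. The 250 bases before the start are printed for the matched gene with the fewest CpGs and the matched gene with the most, with each CpG in capitals. Bmp4 lies on the minus strand at chr14:46390670-46390919, and Grem1 on the minus strand at chr2:113758649-113758898.
Bmp4: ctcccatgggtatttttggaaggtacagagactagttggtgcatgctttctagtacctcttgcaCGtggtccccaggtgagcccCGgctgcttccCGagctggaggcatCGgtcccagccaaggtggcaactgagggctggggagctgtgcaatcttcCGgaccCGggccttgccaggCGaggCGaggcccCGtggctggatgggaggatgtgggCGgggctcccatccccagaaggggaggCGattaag
Grem1: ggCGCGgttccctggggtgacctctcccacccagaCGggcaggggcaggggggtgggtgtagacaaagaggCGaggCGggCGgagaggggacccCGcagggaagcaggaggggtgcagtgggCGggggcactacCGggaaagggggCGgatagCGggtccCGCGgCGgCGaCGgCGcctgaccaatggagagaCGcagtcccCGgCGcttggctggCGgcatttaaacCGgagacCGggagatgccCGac
Over the 300-base window Bmp4 held 12 CpGs, more than 60.4% of 32851 such windows, and Grem1 held 28, more than 85.8% of them. Id2 and Id3 lay between, with 21 and 19 CpGs, beside a median of 7 over all windows. The windows of Id2 and Id3 lie inside the gene positions printed below, which reach further upstream, so they need not hold the only start of these genes. The letters GGCGCC, a GC-rich element that Smad1 and Smad5 can bind and that reads the same on both strands, occurred in the Grem1 and Id2 windows and not in those of Bmp4 and Id3; 11.9% of all windows held them. The palindrome GTCTAGAC, a Smad-binding element, occurred in none of these 4 windows and in 0.213% of all. Among these 4 genes the window with the most CpGs belonged to the one with the lowest level, and none of the 3 that could be tested passed the test between groups.

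The 10 members did not move together: 2 ligands rose, 1 ligand and 1 Id gene fell, and the other 5 tested did not pass. Bmp7 and Bmp3 rose by 2.72-fold and 3.20-fold in the 2KO-labelled libraries, Bmp2 fell 2.24-fold and Id1 fell 3.58-fold. Of the 15336 genes tested, 11.9% were called in either direction by edgeR's quasi-likelihood test (adjusted p under 0.05), 7.0% higher and 4.92% lower. The median log2 fold change of the 9 members tested was -0.28, beside 0.01 over all genes tested. By role the medians were 1.20 for the 4 ligands (3 positive, 1 negative), -0.77 for the 2 tested antagonists, neither called, and -0.28 for the 3 Id genes. Antagonists and modulators outside the members, 12 of them tested, had a median of 0.29, with 9 positive and 3 negative. In 8 of the 9 members tested the libraries of the groups did not overlap, against 57.7% of all genes tested.

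**Figure D1:**
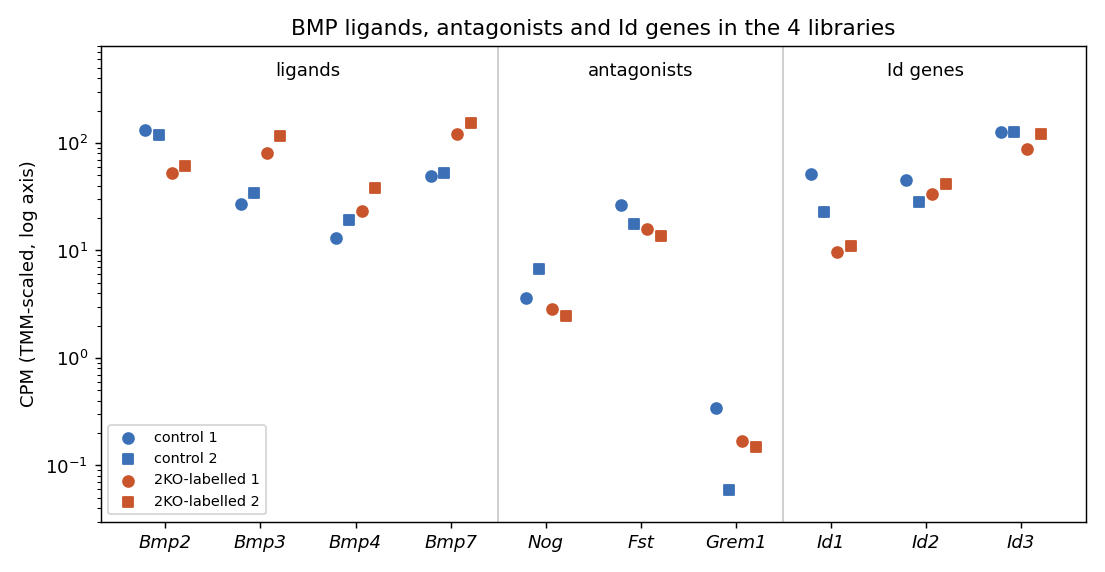
CPM of each member in each library on a log axis (circles, replicate 1; squares, replicate 2; blue, control; orange, 2KO-labelled). Bmp7 and Bmp3 stand higher in both 2KO-labelled libraries, Bmp2 and Id1 lower, and Grem1 lies under 0.4 CPM in all 4.

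Bmp2, a ligand expressed in placodes and papillae of many epithelia (chromosome 2, 133552159 to 133562885, plus strand), was the most abundant of the 4 ligands in control. It stood at 133 and 119.6 CPM in the controls, against 52.4 and 60.5 CPM under the 2KO label. Both 2KO-labelled values lay below both control values, and each group was tight beside the gap between them. The log2 fold change was -1.16 (standard error 0.173, 95% interval -1.54 to -0.78, edgeR adjusted p = 0.00181).

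Bmp7, which pairs with Bmp2 or Bmp4 into heterodimers (chromosome 2, 172868012 to 172940321, minus strand), went the other way. It stood at 49.1 and 52.2 CPM in the controls, against 121 and 154 CPM under the 2KO label. The control libraries lay close together and both 2KO-labelled libraries lay well above them, replicate 2 the higher. The log2 fold change was 1.44 (standard error 0.182, 95% interval 1.04 to 1.84, edgeR adjusted p = 0.000681).

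Bmp3, an atypical ligand of the family that counteracts BMP signalling in bone (chromosome 5, 98854415 to 98884396, plus strand), rose from 26.9 and 34.5 CPM in control to 81.4 and 115 CPM in the 2KO-labelled libraries. The groups did not overlap, and in both of them replicate 2 was the higher. Its log2 fold change of 1.68 was the largest rise among the members (standard error 0.223, 95% interval 1.19 to 2.17, edgeR adjusted p = 0.000892).

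Bmp4, the close relative of Bmp2 that is made in both epithelium and mesenchyme of many organs (chromosome 14, 46383520 to 46390669, minus strand), was the least counted ligand. It stood at 12.99 and 19.0 CPM in the controls, against 23.5 and 38.3 CPM under the 2KO label. The groups did not overlap, but control replicate 2 and 2KO-labelled replicate 1 lay close to each other. The log2 fold change of 0.95 did not pass (standard error 0.305, 95% interval 0.28 to 1.62, edgeR adjusted p = 0.0663). It passed with DESeq2 (0.96, adjusted p = 0.0389), with no filter on low counts (0.95, edgeR adjusted p = 0.00837) and with the replicate number as a block (0.94, edgeR adjusted p = 0.027). Leaving out 1 library leaves a single library in 1 group, so only effect sizes are given for such fits. The log2 fold change was 1.26 without control replicate 2 and 1.26 without 2KO-labelled replicate 1. It was 0.72 without control replicate 1 and 0.55 without 2KO-labelled replicate 2. Exons of Bmp4 overlap those of Gm15217 on the other strand, so its count is uncertain to the extent that the strand setting, not given in the sources used here, let reads be shared.

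**Figure D2:**
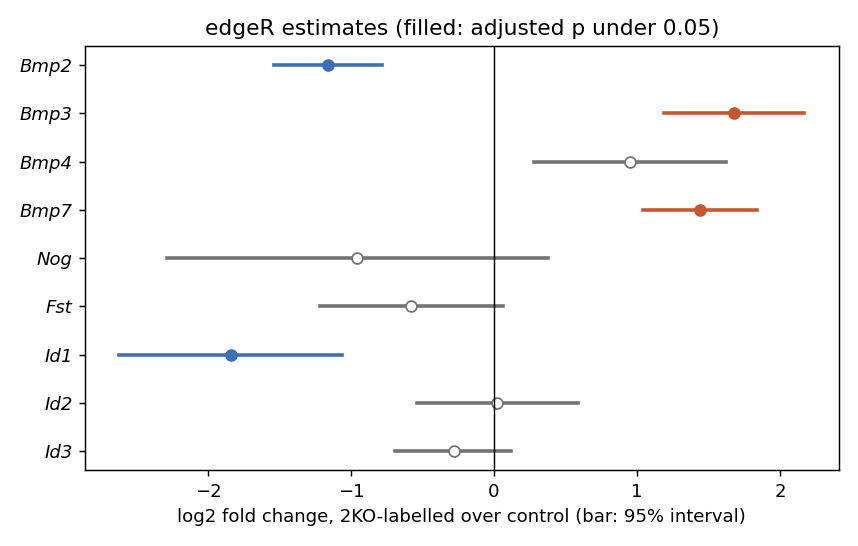
Log2 fold change of the 9 tested members, 2KO-labelled over control, with 95% intervals from edgeR (filled points, adjusted p under 0.05). Bmp3 and Bmp7 lie to the right and Bmp2 and Id1 to the left of 0, while the intervals of Nog, Fst, Id2 and Id3 span 0.

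The opposite changes of Bmp2 and Bmp7 turned their order around within each library, a comparison that does not depend on scaling between libraries. There were 0.368 and 0.437 Bmp7 counts per Bmp2 count in the control libraries and 2.31 and 2.55 in the 2KO-labelled libraries. Bmp2 therefore outnumbered Bmp7 in both control libraries and Bmp7 outnumbered Bmp2 in both 2KO-labelled ones. The mean log2 ratio went from -1.32 to 1.28, a difference of 2.60, and of 2.34 on the FPKM values, which are scaled to gene length. With 2 libraries against 2 the smallest two-sided exact permutation p is 0.333, so no p is given for this ratio.

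Levels are set side by side between genes here on FPKM values, which are scaled to gene length. By these values Bmp2 made up 61.2% and 54.0% of the summed level of the 4 ligands in control. In the 2KO-labelled libraries it made up 22.3% and 20.5%. Bmp7 went from 22.4% and 23.5% to 44.5% and 42.0%. Bmp3 went from 5.86% and 6.99% to 15.8% and 17.3%, and Bmp4 from 10.5% and 15.5% to 17.4% and 20.1%. Bmp2 held the largest share in both control libraries and Bmp7 in both 2KO-labelled ones. The summed level of the 4 ligands was 67.4 and 67.5 FPKM in control and 77.3 and 94.5 FPKM in the 2KO-labelled libraries.

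**Figure D3:**
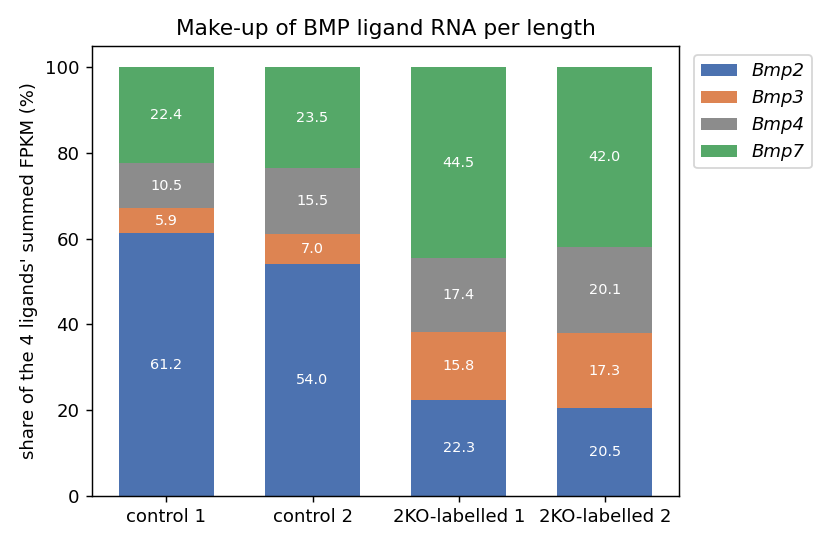
Share of each ligand in the summed FPKM of Bmp2, Bmp3, Bmp4 and Bmp7, one bar per library. Bmp2 takes 61.2% and 54.0% of the control bars and 22.3% and 20.5% of the 2KO-labelled bars, where Bmp7 is the largest part.

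The 3 antagonists among the members had control means of 7.57 FPKM (Fst), 3.80 (Nog) and 0.127 (Grem1), beside 4.34 for Bmp3 and 8.76 for Bmp4. Neither of the 2 tested passed (edgeR, 0 at an unadjusted p under 0.05, and 0 called by DESeq2 or limma-voom). The antagonist gene Sostdc1, outside the members and described below, stood at 162 and 200 FPKM in the controls, against 119 and 128 FPKM under the 2KO label. Fst encodes follistatin, which binds activins most tightly and some BMPs (chromosome 13, 114452290 to 114458951, minus strand). It stood at 26.4 and 17.5 CPM in the controls, against 15.8 and 13.7 CPM under the 2KO label. Both 2KO-labelled values lay below both control values, but the control libraries differed more from each other than control replicate 2 from either 2KO-labelled library. The log2 fold change was -0.58 (standard error 0.291, 95% interval -1.22 to 0.06, edgeR adjusted p = 0.228), and exons of Fst overlap the antisense gene Gm47040.

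Nog encodes noggin, which blocks the receptor-binding faces of several BMPs (chromosome 11, 89300638 to 89302332, minus strand). It stood at 3.63 and 6.69 CPM in the controls, against 2.84 and 2.47 CPM under the 2KO label, from 50 to 114 counts. The highest value was that of control replicate 2, the library with the most skeletal muscle marker RNA, and the link between these was not tested. The log2 fold change was -0.96 with a wide interval of -2.29 to 0.38 (edgeR adjusted p = 0.342). Without control replicate 2 it was -0.44.

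Grem1 encodes gremlin, an antagonist of Bmp2, Bmp4 and Bmp7 that is made mostly by mesenchyme in other organs (chromosome 2, 113746164 to 113758646, minus strand). It had 7 counts in control replicate 1, 1 in control replicate 2 and 3 in each 2KO-labelled library. The groups overlapped, and no difference was detectable at this depth: the ratio of 2KO-labelled to control was 0.742, with a 95% counting interval of 0.212 to 2.44. Its CpG-rich promoter, shown above, was thus that of a gene at or near background in both groups.

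Among the 3 Id genes of the members only Id1 was called, in contrast to Id2 and Id3, although these differences between genes were not themselves tested. Id4, outside the members, was not called either (log2 fold change -0.39, edgeR adjusted p = 0.42). Id1 (chromosome 2, 152736251 to 152737410, plus strand) stood at 51.2 and 22.9 CPM in the controls, against 9.75 and 10.9 CPM under the 2KO label. Both 2KO-labelled libraries lay below both controls, and control replicate 1 was well above control replicate 2. The log2 fold change was -1.84 (standard error 0.354, 95% interval -2.62 to -1.06, edgeR adjusted p = 0.00786). Its size rested in part on control replicate 1, without which it was -1.12. Without control replicate 2 it was -2.30.

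Id3, the most abundant Id gene (chromosome 4, 136143497 to 136145755, plus strand), stood at 127 and 125 CPM in the controls, against 87.3 and 120.3 CPM under the 2KO label. The groups did not overlap, but 2KO-labelled replicate 2 came close to the controls. Its log2 fold change was -0.28 (95% interval -0.69 to 0.12, edgeR adjusted p = 0.356). Id2 (chromosome 12, 25093799 to 25097140, minus strand) stood at 45.4 and 28.5 CPM in the controls, against 33.3 and 41.9 CPM under the 2KO label. The groups overlapped fully, and the log2 fold change was 0.02 (95% interval -0.54 to 0.59, edgeR adjusted p = 0.969).

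Within libraries Id1 fell behind both Id2 and Id3. There were 1.13 and 0.802 Id1 counts per Id2 count in control and 0.293 and 0.261 in the 2KO-labelled libraries. For Id1 against Id3 the ratios were 0.402 and 0.183 in control and 0.112 and 0.0909 in the 2KO-labelled libraries. The groups did not overlap in either ratio. Summed over the 3 Id genes, FPKM stood at 344 and 285 in control and at 200.03 and 248.8 in the 2KO-labelled libraries, with Id3 making up 61.5% to 77.0% of it.

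By FPKM the order of the control means was Id3 (215.5), Id1 (68.6), Bmp2 (38.9), Id2 (30.3), Bmp7 (15.5), Bmp4 (8.76), Fst (7.57), Bmp3 (4.34), Nog (3.80) and Grem1 (0.127). Among neighbours in that order Bmp2 and Id2, Bmp4 and Fst, and Bmp3 and Nog overlapped within the control group. Under the 2KO label the order was Id3 (171), Bmp7 (37.1), Id2 (34.2), Id1 (19.5), Bmp2 (18.3), Bmp4 (16.2), Bmp3 (14.3), Fst (5.19), Nog (1.77) and Grem1 (0.1196), the same in both libraries. There Bmp7 and Id2, Id1 and Bmp2, Bmp2 and Bmp4, and Bmp4 and Bmp3 overlapped. Bmp7 thus stood above Bmp2 and Id1 in the 2KO-labelled libraries and below both in control.

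Of 62 further genes of the pathway, 52 were tested: 5 were higher, 3 lower and 44 did not pass, with a median log2 fold change of 0.16. Among all genes tested, 7.0% were higher and 4.92% lower, the shares beside which each count by role below is to be read. DESeq2 called 7 of the further genes higher and 4 lower, with 1402 and 993 over all genes. Limma-voom called 6 and 3, with 1112 and 856 over all genes. Of the receptors and co-receptors, 0 of 12 tested were called by edgeR, with 1 at an unadjusted p under 0.05 and 0 called by DESeq2 or limma-voom. Bmpr2, the type II receptor, was at 569 and 525 CPM in the controls, against 552 and 493 CPM under the 2KO label, and Bmpr1a, a type I receptor, at 316 and 320.1 against 242 and 257 CPM (edgeR adjusted p = 0.812 and 0.135). Acvr1, another type I receptor, was at 49.0 and 27.9 against 33.7 and 52.3 CPM.

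Among the transducers, 2 of 6 fell, beside 4.92% of all genes tested. Smad9, the least abundant of the BMP-activated Smads, fell from 14.7 and 12.5 CPM to 2.10 and 2.87 CPM, a log2 fold change of -2.45 (95% interval -3.39 to -1.51, edgeR adjusted p = 0.00486), a call that ended on FPKM values with a pseudocount of 0.1 (adjusted p = 0.0629). Smad4, the partner shared with the TGF-beta branch, fell from 131 and 141 CPM to 83.6 and 92.9 CPM (log2 fold change -0.63, edgeR adjusted p = 0.0302). The Smad4 call ended on FPKM values. The log2 fold change of Smad4 was -0.56 without 2KO-labelled replicate 1 and -0.71 without 2KO-labelled replicate 2. Smad1 and Smad5, the main BMP-activated Smads, had log2 fold changes of 0.33 and -0.03 (edgeR adjusted p = 0.363 and 0.919).

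Of 8 other targets and feedback genes, Msx2 was called. Msx2 encodes a homeodomain factor induced by BMP in many tissues and rose from 3.82 and 2.35 CPM to 17.7 and 20.98 CPM, a log2 fold change of 2.64 (95% interval 1.80 to 3.48, edgeR adjusted p = 0.00154), opposite in direction to Id1. Its relative Msx1 was counted at 0.763 CPM or less in the controls, against 1.53 and 1.24 CPM under the 2KO label (edgeR adjusted p = 0.442). Its count was 0 in control replicate 1, where the FPKM was 0.645, so the deposited values of Msx1 disagree. On FPKM values with a pseudocount of 1, Msx1 was called higher (adjusted p = 0.0368). The inhibitory Smads, Smad6 and Smad7, which damp the signal, had log2 fold changes of 0.45 and -0.20 (edgeR adjusted p = 0.468 and 0.651).

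DESeq2 called 2 of the 11 other ligands and limma-voom 2. Of the 6 tested by edgeR, Gdf7, a BMP-type ligand of the dorsal neural tube, rose. It had 3 counts in control replicate 1, 0 in control replicate 2 and 213 over the 2KO-labelled libraries, 70.2 times as much, with 23.7 to 343 as the 95% counting interval (edgeR adjusted p = 0.00521). The size of this rise is poorly set: the log2 fold change fitted by edgeR was 6.04, 5.19 without control replicate 2 and 9.68 without control replicate 1, where the remaining control count was 0 and the fitted value is no bound. On log2(FPKM + 1) values it was 2.69. Bmp10, Bmp15 and Gdf2 had 0 counts in all 4 libraries. Of 12 other antagonists and extracellular modulators tested by edgeR, 2 rose and 1 fell, beside 7.0% and 4.92% of all genes tested. DESeq2 called 4 of this list and limma-voom 3. Sostdc1, which encodes the BMP and Wnt antagonist ectodin, fell from 268 and 344 CPM to 190.3 and 208 CPM (log2 fold change -0.62, edgeR adjusted p = 0.0341). Its call ended on FPKM values. The log2 fold change of Sostdc1 was -0.42 without control replicate 2 and -0.56 without 2KO-labelled replicate 1. Crim1, a transmembrane protein that binds BMPs, rose from 67.0 and 47.7 CPM to 104 and 106 CPM (edgeR adjusted p = 0.0169), and Kcp, a secreted chordin-like protein, from 3.04 and 2.52 CPM to 13.04 and 8.16 CPM (edgeR adjusted p = 0.0246). Both calls ended on FPKM values. The log2 fold change of Kcp was 1.93, and 1.55 without 2KO-labelled replicate 1. Exons of Crim1 and of Kcp each overlap another gene on the other strand.

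Partners of the members' products were also measured. Of 5 activin-type ligands, which follistatin binds, Gdf11 rose from 25.0 and 30.3 CPM to 57.4 and 63.7 CPM (log2 fold change 1.13, edgeR adjusted p = 0.00599) and the other 4 did not pass by edgeR. Of the 5, 2 were at an unadjusted p under 0.05 by edgeR, and DESeq2 called 2 and limma-voom 1. The E-protein genes Tcf3, Tcf4 and Tcf12, whose products Id proteins sequester, had log2 fold changes of 0.35, 0.28 and 0.35. None of the 3 passed (edgeR adjusted p = 0.286, 0.303 and 0.16; 1 at an unadjusted p under 0.05, 0 called by DESeq2 or limma-voom).

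**Figure D4:**
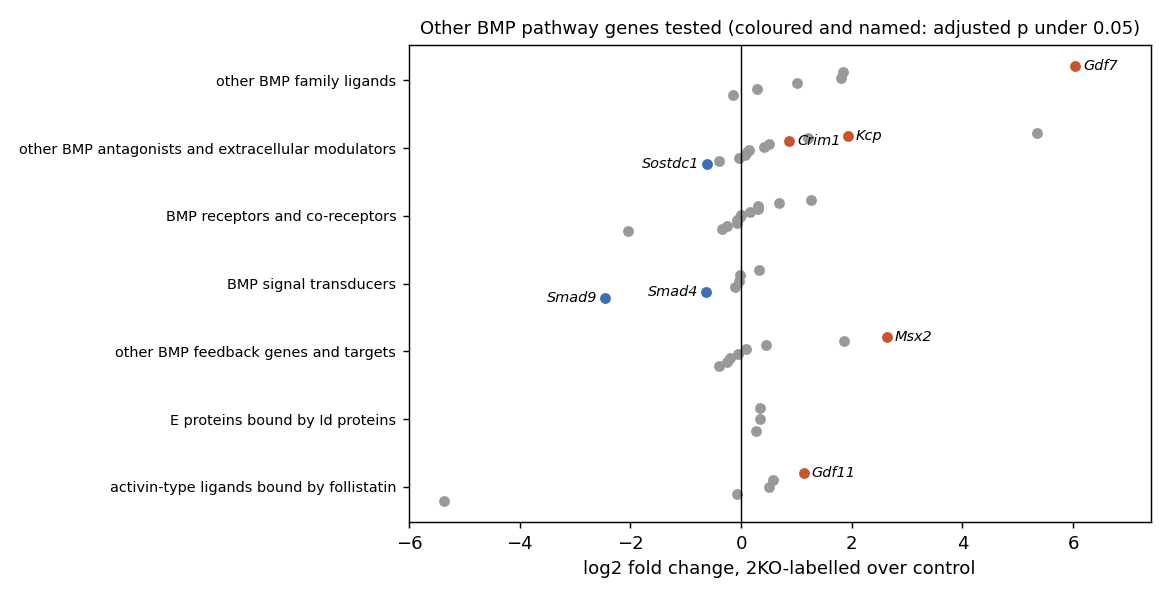
Log2 fold change of the 52 other pathway genes tested, 2KO-labelled over control, by role (one point per gene; orange and named, called higher; blue and named, called lower; grey, not called). Receptors hold no called gene, while Gdf7, Kcp, Crim1, Msx2 and Gdf11 lie to the right and Smad9, Smad4 and Sostdc1 to the left.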

How the data were processed

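Each library has 2 deposited values a gene, a raw read count and an FPKM (length-scaled) level, both computed by the authors. Per the labels' protocols, a small amount of RNA from sorted cells was reverse transcribed, amplified and sequenced as single reads, so reads are not independent molecules. The counting intervals of Grem1 and Gdf7 cover counting error only, while the edgeR intervals also take in the spread between libraries. Per the submitters' processing notes, build mm10 was used with HTSeq 0.6.1, TopHat2 2.0.13, DESeq2 1.6.3 and Cufflinks 2.2.1. For the strand setting, annotation and tool behind each column, nothing is given in the sources used here.

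Counts were tested with edgeR 4.0.16 in R 4.3.3 (TMM, filterByExpr, two-sided quasi-likelihood test of genotype, Benjamini-Hochberg over 15336 genes, threshold 0.05), checked on simulated counts. Standard errors are the log2 fold change over the root of the F statistic. Positions are from GENCODE on the same build. The members and lists were chosen with earlier results of these data known. All members and all called pathway genes are named, with a fixed set of uncalled ones and, added later, Id4. Alternatives were RLE and upper-quartile scaling, DESeq2 1.42.0, limma-voom (limma 3.58.1), other filters, limma-trend on log2 FPKM, a replicate block, each library left out and, chosen after seeing the data, Rn45s left out. Rn45s took 15.3% to 16.7% of control counts and 20.2% to 22.9% of 2KO-labelled counts.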

Additional observations from a re-analysis of the deposited data

How the results depend on the processing

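Bmp2, Bmp3, Bmp7 and Id1 kept their direction under every alternative. They kept their call under every alternative fitted to all 4 libraries but 1. On log2(FPKM + 1) values with no filter on low values, 0 members, 0 other pathway genes and 0 genes in all were called in either direction by limma-trend, with 2163 higher and 1356 lower at an unadjusted p under 0.05. With a pseudocount of 1 on FPKM after the filter, 588 genes were higher and 231 lower, and with 0.1, 472 and 175; other pathway genes called lower then numbered 1 and 0. With no filter on low counts 1242 genes were lower. The Bmp7 to Bmp2 difference was 2.34 on FPKM. Leaving out 1 library gave 839 to 1643 genes higher (the most without control replicate 1), 537 to 1104 lower, and 1 to 3 other pathway genes lower (the fewest without 2KO-labelled replicate 1). The sign of differences near 0 turned for Id2 (-0.27 to 0.42 with 1 library left out), Bmpr2 (-0.15 to 0.02; 0.07, 0.08 and 0.07 on FPKM), Acvr1 (-0.20 to 0.64), Smad7 (-0.53 to 0.25) and Smad5 (-0.10 to 0.02; 0.02 with upper-quartile scaling, 0.08, 0.09 and 0.08 on FPKM), none of them called; the cause was not tested. With the replicate block 1156 genes were higher and 880 lower, 3 members rose (Bmp4 added) and 2 fell, and 6 other pathway genes rose and 3 fell. Deviations of same-numbered libraries correlated at -0.0232 over genes, so the numbers are not taken as pairs. Depth limits Grem1, Gdf7, Msx1 and Nog.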
